A study of Homo sapiens with 6 samples.

Results

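The sliding clamp PCNA, the 5 subunits of its loader (RFC1 to RFC5) and the enzymes that mature Okazaki fragments (FEN1, DNA2, RNASEH2A and LIG1) were compared between cells with GDF15 knocked down and control cells. The members were the rows of the deposited expression table that carry these symbols, 10 of 34738 listed genes, and all 10 were among the 11867 genes tested, those with a mean of at least 1 FPKM (fragment counts scaled by exon length and by library depth) over the 6 libraries. Cells of the thyroid cancer line KHM-5M were transfected with an siRNA against GDF15 (siGDF15) or served as the control group (NC), and poly(A) RNA of 3 samples per group was sequenced as read pairs of 150 bases. The labels give NC as genotype control and a blank control, while the methods name negative control cells and list a negative control siRNA among the duplexes used. The sources do not say whether the NC samples sequenced here received it, and an effect of transfection and an effect of the knockdown cannot be told apart if NC received no siRNA. A heatmap legend in the study names another thyroid cancer line, and the name used here is that of the labels. The knockdown was a transient transfection of 1 line.

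PCNA is a ring of identical subunits that encircles DNA and holds polymerases and processing enzymes on the template. The ring is opened and closed around primed DNA by the RFC complex, in which RFC1 is the large subunit and RFC2 to RFC5 are smaller, related ATPases of the AAA+ family. On the lagging strand each fragment starts with an RNA-DNA primer; the displaced flap is cut by FEN1, long flaps by DNA2, ribonucleotides are removed with the help of RNase H2, whose catalytic subunit is RNASEH2A, and the remaining nick is sealed by LIG1.

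Total counts per library ran from 51738814 in siGDF15 replicate 2 to 68025163 in NC replicate 2, and the deposited counts step by about 4 per read pair. GDF15, a secreted cytokine of the TGF-beta superfamily and the targeted gene, had 22.4, 19.3 and 23.1 FPKM in NC and 10.8, 10.5 and 10.7 FPKM in siGDF15 (log2 fold change -0.92, SE 0.079, adjusted p = 2.4e-05, edgeR). The knockdown at the RNA level was thus partial, and GDF15 itself fell short of the log2 fold change of 1 used below to call a gene. The share of counts on mitochondrially encoded genes was 6.39 to 6.78% in NC and 8.53 to 9.17% in siGDF15, and its part in the changes of the members was not tested. Of the thyroid markers, PAX8 rose from 59.1 ± 5.33 FPKM in NC to 79.4 ± 1.7 FPKM in siGDF15 (log2 fold change 0.53, adjusted p = 0.00012, edgeR), FOXE1 did not pass the test (2.76 and 2.83 FPKM), and TG, SLC5A5 and NKX2-1 were near 0, with means of at most 0.0548 FPKM in NC and 0.186 FPKM in siGDF15 (both TG). Of 5 epithelial markers, 1 passed the test, CDH1, at 0.897 FPKM in NC and 1.28 FPKM in siGDF15 (log2 fold change 0.61, adjusted p = 0.049, edgeR), and the keratin KRT18 stood at 92.6 and 93.9 FPKM. Of the fibroblast markers, COL1A1, COL1A2 and LUM were present at 5.66, 6.32 and 5.65 FPKM in NC, and 0 of the 4 tested passed. CD68, a macrophage marker, had 18.3 FPKM in NC and 16.9 FPKM in siGDF15 (adjusted p = 0.92, edgeR). The leukocyte marker PTPRC and the T cell marker CD3E had means of 0.00505 FPKM or less in both groups. The 3 endothelial markers summed to at most 0.198 FPKM in a library. The part of these markers in the changes of the members was not tested.

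All 10 members were lower in siGDF15 than in NC. A gene was called when its adjusted p (edgeR's quasi-likelihood test, Benjamini-Hochberg over all tested genes) was under 0.05 and its log2 fold change at least 1 in either direction. By this rule 8 of 10 members were called lower and 0 higher, where 4.78% of all tested genes were called lower and 3.03% higher. With the adjusted p alone, 10 of 10 members were lower, against 31.4% of tested genes lower and 30.0% higher. In all 10 the highest siGDF15 library lay below the lowest NC library, both in FPKM and in counts scaled by depth and TMM factors. On the scale of these counts, that held for 34.1% of tested genes, and the share in FPKM was not computed. The members' log2 fold changes ran from -1.49 (RNASEH2A) to -0.35 (RFC1) with a median of -1.24, beside 0.00257 for all tested genes. The median member kept 39.3% of its NC level in FPKM. FPKM are scaled to the whole library and the fold changes to TMM factors of 1.03 to 1.04 in NC and 0.958 to 0.972 in siGDF15, so that a percentage taken from FPKM gives a slightly larger fall than the fold change beside it. These are bulk samples, in which fewer cells in a replicating state and less RNA per cell cannot be told apart.

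**Figure D1:**
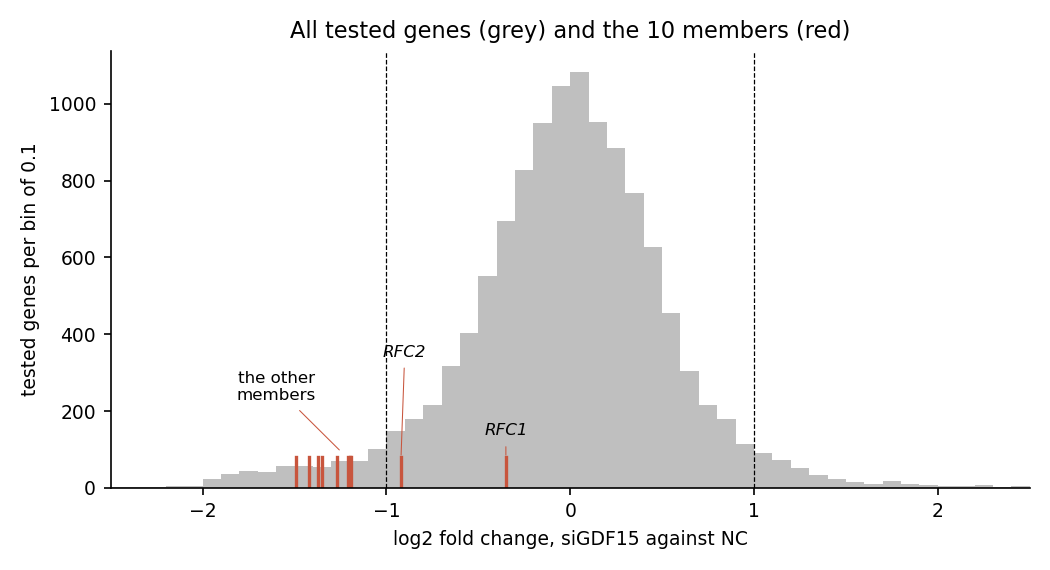
Number of tested genes (vertical axis) by log2 fold change of siGDF15 against NC (horizontal axis, bins of 0.1). Red ticks mark the 10 members, 8 of which lie beyond the dashed fold limit on the lower side, with RFC2 at -0.92 and RFC1 at -0.35 inside it; 28 genes beyond 2.5 in either direction are not drawn.

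The promoters of the members were searched because the genes moved together and because cell cycle genes of this kind are known to carry binding letters of E2F factors. Only the windows that held such letters are printed. RefSeq windows of 300 bases, 250 before to 50 after a start (GRCh38.p14), were found for 9 of 10 members, with 2 windows for PCNA, and the member without an entry was DNA2. The letters TTTGGCGC, TTTCCCGC, TTTCGCGC and TTTGCCGC, searched on both strands, were present in 1164 of 35116 windows of all genes (3.31%). They were present in 3 of 10 member windows, from 3 of 9 member genes, PCNA, RFC3 and LIG1. The 250 bases before the start of each follow, read 5′ to 3′ along the gene, with capitals for E2F letters and for CCAAT on either strand.
PCNA (chr20:5126623-5126872, minus strand): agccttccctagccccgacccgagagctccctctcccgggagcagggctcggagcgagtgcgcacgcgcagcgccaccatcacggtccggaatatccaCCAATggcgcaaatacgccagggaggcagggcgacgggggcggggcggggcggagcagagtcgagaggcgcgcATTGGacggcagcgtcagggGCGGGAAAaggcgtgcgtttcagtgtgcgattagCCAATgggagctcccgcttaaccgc
RFC3 (chr13:33817899-33818148, plus strand): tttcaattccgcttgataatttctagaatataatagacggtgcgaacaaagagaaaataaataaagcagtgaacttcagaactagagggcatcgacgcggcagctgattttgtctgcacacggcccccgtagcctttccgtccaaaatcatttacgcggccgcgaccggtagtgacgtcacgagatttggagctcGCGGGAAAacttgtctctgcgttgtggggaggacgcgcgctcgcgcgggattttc
LIG1 (chr19:48170345-48170594, minus strand): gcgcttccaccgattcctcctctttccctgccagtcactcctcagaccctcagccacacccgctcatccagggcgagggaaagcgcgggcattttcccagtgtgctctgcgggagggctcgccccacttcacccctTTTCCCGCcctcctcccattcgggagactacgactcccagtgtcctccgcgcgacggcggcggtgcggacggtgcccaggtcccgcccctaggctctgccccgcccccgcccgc

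In all 3 genes the letters found were TTTCCCGC, which first occurred at -59 in PCNA, at -55 in RFC3 (both on the opposite strand, where they read GCGGGAAA) and at -114 in LIG1, counted from the start. The pentamer CCAAT, searched on both strands, was present in 12155 of 35116 windows (34.6%) and in 5 of 10 member windows, from 4 member genes. PCNA held 3 in the window printed above, at -152, -79 and -25, and RFC1, RFC5 and RNASEH2A held 1 each. The windows of RFC2, RFC4 and FEN1 held neither motif in these spellings. The 3 genes with E2F letters had log2 fold changes of -1.20, -1.37 and -1.21, within the range of the members without them. A match of letters is a description of the window and says nothing of which factor was bound.

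PCNA (ENSG00000132646, chr20:5114953-5126626, minus strand) was the most abundant member. Its level was 156, 165 and 159 FPKM in NC replicates 1 to 3 and 69.4, 63.4 and 61.0 FPKM in siGDF15. The siGDF15 libraries lay far below the NC libraries, with no overlap. The mean fell from 160.0 ± 4.44 to 64.6 ± 4.29 FPKM (SD, n = 3 per group), and 40.4% of the NC level was left. The log2 fold change was -1.20 with an SE of 0.055 (adjusted p = 1e-06, edgeR). The counts behind these values were the largest of the members, up to 17316 in one library. The deposited annotation lists PCNA under DNA replication, base excision repair, nucleotide excision repair, mismatch repair and the cell cycle, and it was the only member of the 10 under the cell cycle. All 10 are listed under DNA replication, 7 (PCNA, RFC1 to RFC5 and LIG1) under nucleotide excision and mismatch repair, and 3 (PCNA, FEN1 and LIG1) under base excision repair.

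**Figure D2:**
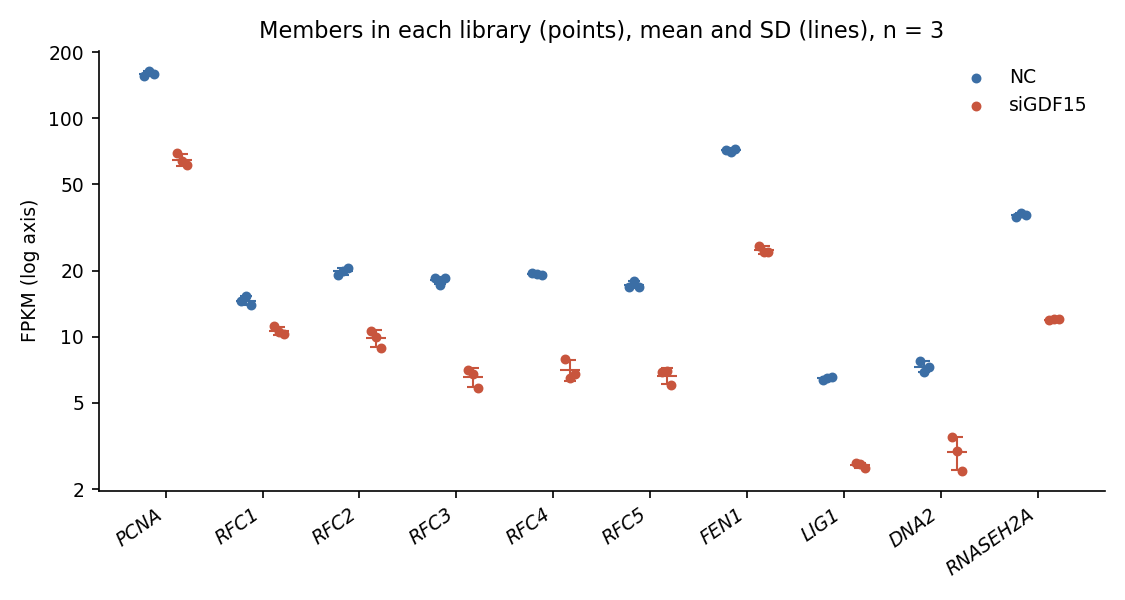
FPKM of each member on a log axis in the 3 NC (blue) and 3 siGDF15 (red) libraries; points are libraries, horizontal bars the mean and error bars the SD. Each member's red points lie below its blue points, with the narrowest gap at RFC1 (14 against 11.2 FPKM).

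The loader subunits did not fall by the same amount. RFC1 (ENSG00000035928, chr4:39287456-39366375, minus strand), the large subunit, had 14.5, 15.4 and 14 FPKM in NC and 11.2, 10.5 and 10.3 FPKM in siGDF15. The groups did not overlap, but 72.9% of the NC level was left. Its log2 fold change of -0.35 (SE 0.053, adjusted p = 0.00055, edgeR) passed the test and not the fold limit, and it was the smallest change of the 10.

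RFC2 (chr7:74231499-74254407, minus strand), a small ATPase subunit, had 19.2, 20 and 20.7 FPKM in NC and 10.6, 9.99 and 8.91 FPKM in siGDF15. The highest siGDF15 library stood well below the lowest NC library. The log2 fold change of -0.92 (SE 0.077, adjusted p = 2.1e-05, edgeR) was just inside the fold limit, and it passed that limit in 2 of 16 alternative fits, at -1.02 with limma on log2(FPKM + 0.1) and with library totals in place of TMM. Those 2 fits also moved the median of all tested genes down, to -0.09967 and -0.09916.

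RFC3 (chr13:33818149-33966425, plus strand), another small subunit, had 18.5, 17.3 and 18.6 FPKM in NC and 7.06, 6.73 and 5.81 FPKM in siGDF15. No siGDF15 library came near the NC range, and 36.0% of the NC level was left (log2 fold change -1.37, SE 0.085, adjusted p = 4.1e-06, edgeR). RFC4 (chr3:186789880-186806482, minus strand) had 19.5, 19.4 and 19.2 FPKM in NC and 7.94, 6.45 and 6.72 FPKM in siGDF15. Its NC libraries were the most even of the loader genes, with an SD of 0.118 FPKM, and its siGDF15 libraries were again separate from them, at 36.4% of the NC level (log2 fold change -1.35, SE 0.08, adjusted p = 3.2e-06, edgeR). RFC5 (chr12:118013588-118032234, plus strand) had 16.9, 18 and 16.9 FPKM in NC and 6.92, 6.97 and 6.02 FPKM in siGDF15. It kept 38.5% of its NC level, with no overlap between groups (log2 fold change -1.27, SE 0.075, adjusted p = 3.2e-06, edgeR). RFC3 shares 4636 bases of its span with an unnamed gene on the same strand, so that the counting could assign reads of either gene to the other. That gene had 250 counts on average in NC, beside 3890 for RFC3, and 85.7 in siGDF15. RFC4 shares 18 bases with EIF4A2 on the opposite strand.

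The balance of the loader transcripts was read as a ratio within each library, which does not depend on how libraries are scaled. The log2 ratio of RFC1 to the mean of RFC2 to RFC5 was -0.35, -0.27 and -0.43 in NC and 0.49, 0.50 and 0.61 in siGDF15. RFC1 thus stood below the mean of the small subunits in every NC library and above it in every siGDF15 library, on the deposited scale per length. The difference was 0.88, a ratio 1.84-fold higher in siGDF15. In an exact permutation test, two-sided, p was 0.1, the smallest that 3 libraries against 3 allow, and 0.133 after adjustment over the 4 ratios computed, so that no ratio could pass the threshold.

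**Figure D3:**
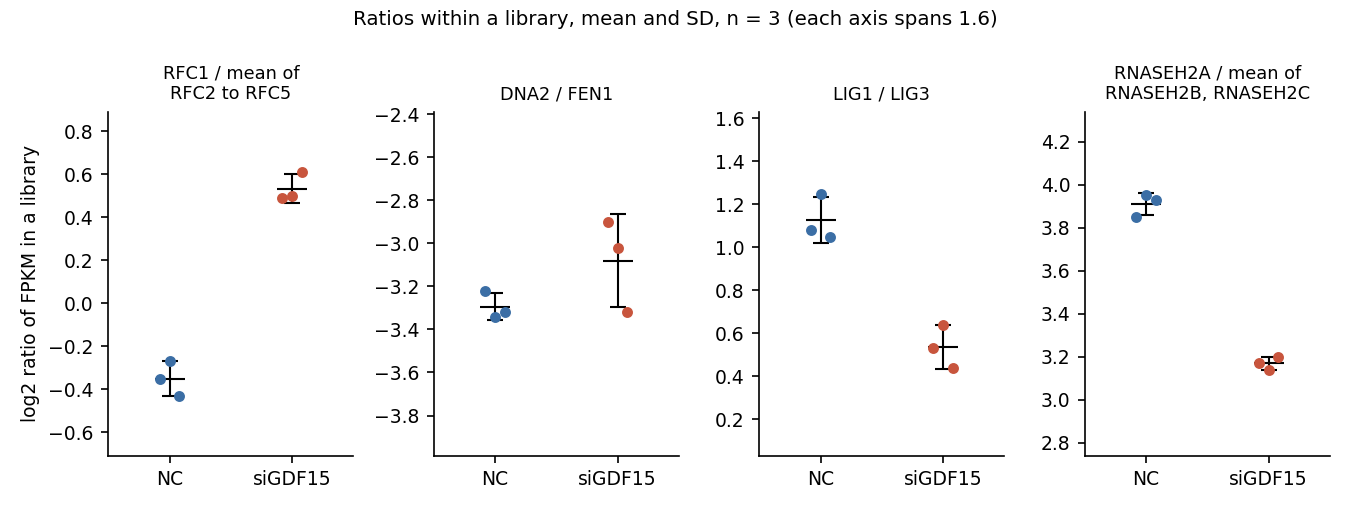
Log2 ratio of FPKM within a library for 4 pairs, in NC and siGDF15; points are the 3 libraries of a group, horizontal bars the mean and error bars the SD, and each vertical axis spans the same width. The groups are separate for RFC1, LIG1 and RNASEH2A, with differences of 0.88, -0.59 and -0.74, and share values for DNA2 against FEN1.

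FEN1 (ENSG00000168496, chr11:61792911-61797238, plus strand), the flap endonuclease, was the second most abundant member, with 71.9, 69.9 and 72.7 FPKM in NC and 26.1, 24.3 and 24.3 FPKM in siGDF15. Both groups were tight, and the siGDF15 libraries kept 34.8% of the NC level (log2 fold change -1.42, SE 0.047, adjusted p = 4.3e-07, edgeR). FEN1 overlaps FADS2 on the same strand over 4259 bases, so that the counting could assign reads of either gene to the other. FADS2 had 1690 counts on average in NC beside 11800 for FEN1, and the log2 fold change of FADS2 was -0.58 (adjusted p = 0.0043, edgeR).

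DNA2 (chr10:68414064-68472121, minus strand), the nuclease and helicase that shortens long flaps, had 7.71, 6.90 and 7.30 FPKM in NC and 3.48, 3.00 and 2.44 FPKM in siGDF15. The groups did not overlap, although this member had the widest relative spread in siGDF15, 2.97 ± 0.521 FPKM (SD, n = 3). The log2 fold change was -1.19 (SE 0.12, adjusted p = 5.7e-05, edgeR), with the largest SE and the lowest counts of the members, down to 854 in a library. The log2 ratio of DNA2 to FEN1 was -3.22, -3.34 and -3.32 in NC and -2.90, -3.02 and -3.32 in siGDF15. Its lowest siGDF15 value lay within the NC range, and the difference of 0.21 did not pass the exact permutation test (two-sided p = 0.3). It was 0.1235 without siGDF15 replicate 1 and 0.3305 without siGDF15 replicate 3.

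RNASEH2A (ENSG00000104889, chr19:12806584-12813640, plus strand) fell the most of the members. It had 35.2, 37.0 and 36.0 FPKM in NC and 11.9, 12 and 12 FPKM in siGDF15. The siGDF15 libraries were nearly identical, with an SD of 0.0767 FPKM, and 33.1% of the NC level was left (log2 fold change -1.49, SE 0.051, adjusted p = 4.7e-07, edgeR). The listed span of RNASEH2A lies inside HOOK2 on the opposite strand (7057 bases). HOOK2 had 1000 counts on average in NC beside 5570 for RNASEH2A, and moved the other way (log2 fold change 0.34, adjusted p = 0.023, edgeR). The kit marks strand, but the strand setting of the counting is not given in the sources used here.

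The other RNase H genes were set beside it. RNASEH2B, an accessory subunit, had 1.01, 1.05 and 0.98 FPKM in NC and 0.417, 0.422 and 0.386 FPKM in siGDF15, below the filter of the test; with a filter at 0.1 FPKM its log2 fold change was -1.23 (adjusted p = 2.84e-06, edgeR). RNASEH2C, the other accessory subunit, fell less, from 5.71 ± 0.245 to 4.33 ± 0.156 FPKM (SD, n = 3; log2 fold change -0.29, adjusted p = 0.0043, edgeR). RNASEH1, which encodes a separate enzyme of the nucleus and mitochondria, did not pass the test (log2 fold change -0.05, adjusted p = 0.62, edgeR). The log2 ratio of RNASEH2A to the mean of the accessory subunits was 3.85, 3.95 and 3.93 in NC and 3.17, 3.14 and 3.20 in siGDF15. Both groups were separate, with a mean lower by 0.74, with p = 0.1 in the exact permutation test and 0.133 after adjustment. That ratio averages a subunit that changed much like RNASEH2A with one that changed little.

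LIG1 (chr19:48115445-48170603, minus strand), the replicative ligase, had 6.32, 6.45 and 6.55 FPKM in NC and 2.63, 2.61 and 2.51 FPKM in siGDF15. Both groups were narrow and separate, and 40.1% of the NC level was left (log2 fold change -1.21, SE 0.052, adjusted p = 8.6e-07, edgeR). The log2 ratio of LIG1 to LIG3, the ligase of repair and of mitochondria, was 1.08, 1.25 and 1.05 in NC and 0.53, 0.64 and 0.44 in siGDF15. This ratio was lower in every siGDF15 library than in any NC library, by 0.59 on average (exact permutation test, two-sided p = 0.1, 0.133 adjusted). LIG3 itself fell from 2.96 ± 0.226 to 1.78 ± 0.0958 FPKM (SD, n = 3; log2 fold change -0.62, adjusted p = 0.00016, edgeR).

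**Figure D4:**
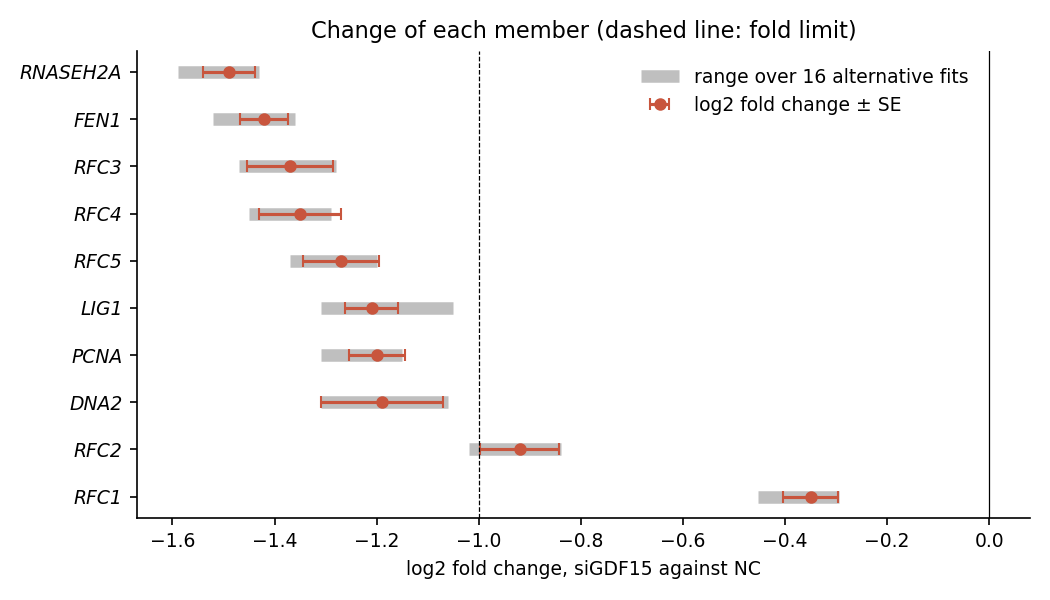
Log2 fold change of each member in siGDF15 against NC (points, with SE as error bars) and its lowest to highest value over 16 alternative fits (grey bars). RNASEH2A, FEN1, RFC3, RFC4, RFC5, LIG1, PCNA and DNA2 stay beyond the dashed limit in every fit, the RFC2 bar reaches across it, and RFC1 stays well inside it.

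Within siGDF15, replicate 1 was the highest library in FPKM for 8 of 10 members and replicate 3 the lowest for 7 of 10. The NC libraries shared these places more evenly, each being the highest in 2 to 4 members. Leaving out siGDF15 replicate 1 moved the members' median to -1.301 and leaving out replicate 3 moved it to -1.187, and the count of called members was 8 in both cases. With siGDF15 replicate 2, the shallowest library, left out, 8 members were called as well.

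The order of the members' levels depends on the length by which fragments were divided. In NC the order per deposited length was PCNA, FEN1, RNASEH2A, RFC2, RFC4, RFC3, RFC5, RFC1, DNA2 and LIG1, from 160.0 to 6.44 FPKM, a 24.8-fold range. RFC2 and RFC4 overlapped in their ranges over libraries, as did RFC3 and RFC5. Over 8588 genes with several transcripts, the length behind the FPKM was a median of 1.0 times the union of all exons listed for the gene in GENCODE release 29, and it lay within 2% of that union for 66.1% of them. Some members departed from it by more than that. For LIG1 the length was 11391 bases, with 28 transcripts in the deposited table, where the union in release 29 has 6576 bases and the principal transcript 3384. It was 2198 bases for FEN1 beside a union of 2478, 2058 for RNASEH2A beside 3645, and 1403 for PCNA beside 1471. The lengths used for these genes and LIG1 are thus not those of release 29. Divided by the principal transcript where that is shorter, the NC level of LIG1 was 21.7 in place of 6.44 FPKM, beside 21.6 for RFC3 and 20.2 for RFC1, whose ranges each overlapped the next. The levels of RFC4 and RFC5 became 40.1 and 33.9 FPKM by the same division and DNA2 was then lowest, at 8.56 FPKM. PCNA and FEN1 kept the first places on both scales, and the folds between groups do not depend on this length.

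In siGDF15 the order per deposited length was PCNA, FEN1, RNASEH2A, RFC1, RFC2, RFC4, RFC5, RFC3, DNA2 and LIG1. RFC1 stood eighth in NC and next to RNASEH2A in siGDF15, at 10.7 ± 0.485 FPKM, where its range overlapped that of RFC2. On this scale RFC4, RFC5 and RFC3 could not be ordered beyond their spread, and neither could DNA2 and LIG1. Divided by the principal transcript where that is shorter, LIG1 stood at 8.69 FPKM (8.44 to 8.85 over libraries) and DNA2 at 3.48 FPKM (2.86 to 4.08). RFC3 was then at 7.78 FPKM (6.92 to 8.4), below the ranges of RFC4 (13.4 to 16.5) and RFC5 (11.8 to 13.7).

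The genes that act on or beside the clamp were 57 in 7 lists, 53 of them tested. Of these, 20 were called lower and 0 higher, the adjusted p alone gave 41 lower and 3 higher, and the median log2 fold change was -0.709. The alternative clamp loaders and the unloader had 3 of 5 called lower and a median of -1.42. DSCC1, a subunit of the loader used in cohesion, went from 15.0 ± 0.19 to 4.12 ± 0.604 FPKM (log2 fold change -1.76, adjusted p = 3.3e-06, edgeR), and CHTF18, the large subunit of that loader, from 10.7 ± 0.526 to 3.65 ± 0.147 FPKM (-1.45, adjusted p = 7.3e-07). The 9-1-1 clamp, which is loaded at damaged DNA, had 0 of 3 tested genes called, with all 3 lower by the adjusted p and a median of -0.709; RAD1 changed by -0.87 and RAD9A by -0.71 (adjusted p = 1.3e-05 and 0.00058).

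Of 19 tested genes that bind or modify PCNA, 9 were called lower, and by the adjusted p 13 were lower, 2 higher and 4 did not pass, with a median of -0.979. TICRR, needed for origin firing, fell from 4.73 ± 0.443 to 1.33 ± 0.0476 FPKM (log2 fold change -1.73, adjusted p = 9.9e-07, edgeR), and UHRF1, which recruits the maintenance methyltransferase to replicated DNA, from 27.7 ± 3.26 to 7.92 ± 0.456 FPKM (-1.70, adjusted p = 2.1e-06). The higher pair were WDR48, the cofactor of the deubiquitinase USP1 (0.30, adjusted p = 0.0042), and CDKN1A, the PCNA-binding inhibitor p21 (0.27, adjusted p = 0.014), which was no longer past the test in 4 of 16 alternative fits.

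Among 8 other flap and gap nucleases, 3 were called lower and 6 were lower by the adjusted p (median -0.764). EME1, the partner of the nuclease MUS81, changed by -1.90 (adjusted p = 1.5e-06, edgeR) and EXO1, an exonuclease of mismatch repair and resection, by -1.79 (adjusted p = 9e-07). The other RNase H genes had 0 of 2 tested genes called, 1 lower by the adjusted p, and a median of -0.172. The other ligases and break-joining genes had 0 of 6 called, with 4 lower and 1 higher by the adjusted p and a median of -0.234. There the largest change was that of PARP1, the sensor of strand breaks, at -0.69 (adjusted p = 7.7e-06, edgeR), and the higher gene was LIG4, the ligase of end joining, at 0.22 (adjusted p = 0.032), which was not past the test in 11 of 16 alternative fits. Of the 10 tested genes of strand binding, fork protection and helicases, 5 were called lower and 9 were lower by the adjusted p, with a median of -0.971. The helicase BLM changed by -2.02 and the checkpoint adaptor CLSPN by -1.90 (adjusted p = 9e-06 and 3.2e-06, edgeR).

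**Figure D5:**
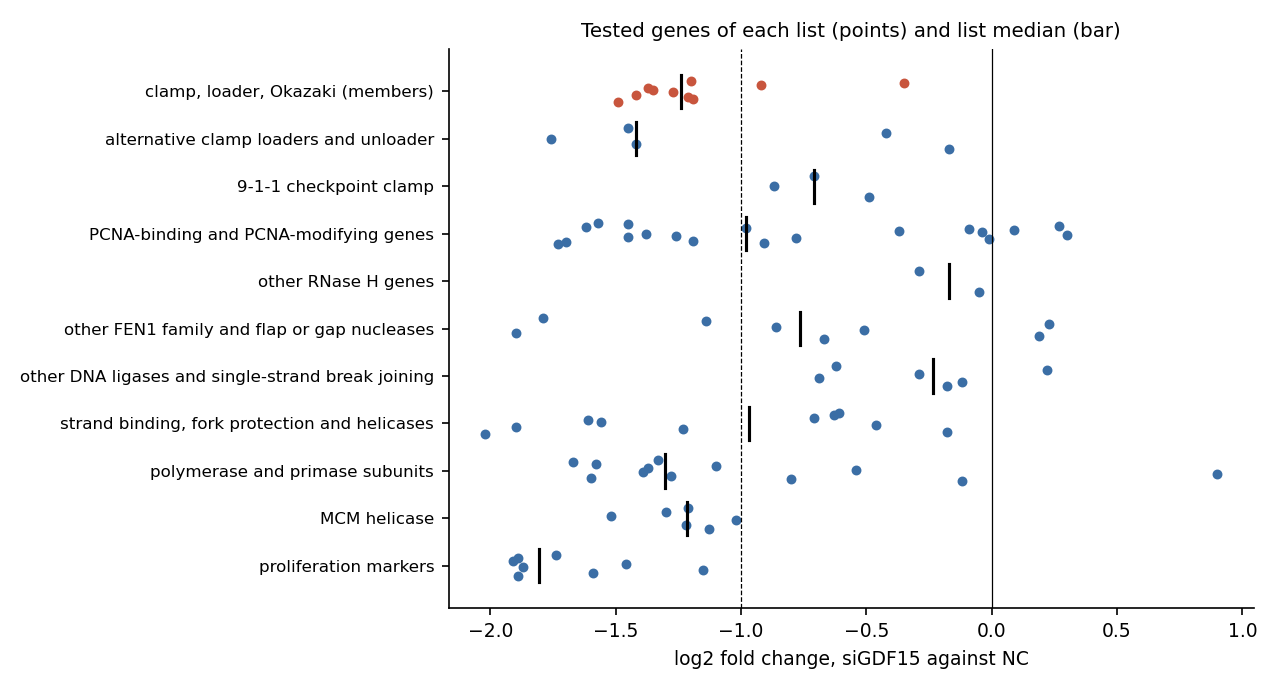
Log2 fold change of every tested gene of each list (points) with the list's median (black bar); the members are red and the dashed line is the fold limit. The members' median of -1.24 lies beside -1.22 for the MCM helicase and -1.3 for the polymerases, and the lists of other ligases and other RNase H genes have medians of -0.234 and -0.172.

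Beside the members stood the helicase and the polymerases of the replication machinery. All 6 MCM helicase genes were called lower with a median of -1.22, and 8 of 12 polymerase and primase subunits with a median of -1.3. By the adjusted p, 10 of those 12 were lower, 1 was higher and 1 did not pass. The higher gene was POLD4, the smallest subunit of polymerase delta, which went from 9.38 ± 2.02 to 16.3 ± 0.629 FPKM without overlap (SD, n = 3; log2 fold change 0.90, adjusted p = 0.00055, edgeR), and POLE4 did not pass (-0.12, adjusted p = 0.08). The 8 proliferation markers were listed as genes moving beside the members, with earlier results of these data known, so that their count is no test. All 8 were called lower, with a median of -1.81. They ranged from -1.91 (CCNA2, a cyclin of S phase and G2) and -1.89 (TOP2A, a topoisomerase of dividing cells) to -1.15. Their summed level was 416 to 443 FPKM in NC and 113 to 134 FPKM in siGDF15, without overlap. Their part in the fall of the members was not tested.

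The genes outside the members and lists whose profile over the 6 libraries was closest to the mean of the members were HAT1 (histone acetyltransferase 1), ANP32E, ODF2, HMGB1 and UHRF1BP1. The measure was the root mean square difference of centred log2 CPM (counts scaled by library depth), which was 0.0222 for HAT1, 0.0265 for ANP32E, 0.0276 for ODF2, 0.0299 for HMGB1 and 0.0362 for UHRF1BP1. Their log2 fold changes were -1.20, -1.18, -1.21, -1.17 and -1.12. Among the members themselves PCNA was the closest to the mean profile, at 0.0272, and RFC1 the farthest, at 0.417. The profiles have 6 points from 2 groups of libraries, so that a like fold change alone makes them close.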

How the data were processed

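The authors isolated total RNA, selected poly(A) RNA and prepared dUTP-marked libraries for paired sequencing; per the labels, the tools were fastp, HISAT2, StringTie and edgeR on GRCh38, with versions not given in the sources used here. The authors deposited FPKM values, scaled by exon length and library depth, and expected counts, which are whole numbers derived from coverage and not normalized. The value 4 made up 15.6% of counts from 1 to 20, so 4 counts were taken as 1 read pair.

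Expected counts were tested with edgeR 4.0.16 (quasi-likelihood, TMM, two-sided, Benjamini-Hochberg) in R 4.3.3 over genes with a mean of at least 1 FPKM. SEs come from the fold change and its F statistic. Ratios were tested by exact permutation (scipy 1.17.1). Replicates are described as biological; where they share a culture, p-values cover only the spread between these samples. Motifs were searched in RefSeq promoter windows. The edgeR step was run on simulated data, counts drawn with known changes. The simulated counts lacked the step of about 4 per read pair, so that this run does not cover that feature of the deposited counts.

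The members and lists were chosen with earlier results of these data known. Named genes were the members, the 2 largest changes of each list and the largest opposite change with an adjusted p under 0.05, the genes of the ratios, GDF15, and the 5 closest profiles; CDKN1A, POLD4, POLE4 and cell type markers were added for the counts and checks they belong to. Alternatives were DESeq2 1.42.0 (test and size factors), limma 3.58.1 on log2(FPKM + 1) and log2(FPKM + 0.1), other filters and scalings, a replicate block, and each library left out. Division of counts by 4, and levels per principal transcript, were added after seeing the data. Planned protein features were not run, and TSHR was not analysed here.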

Additional observations from a re-analysis of the deposited data

How the results depend on the processing

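Over 16 alternative fits the same 8 members stayed called, RFC2 joined them in 2 (library totals without TMM, and limma on log2(FPKM + 0.1)), and all 10 kept an adjusted p under 0.05 and their direction. The members' median of -1.24 became -1.342 with library totals without TMM (which moves the median of all tested genes to -0.09916), -1.185 with equal median counts, -1.293 with no filter on low values and -1.338 with limma on log2(FPKM + 0.1) (which moves the median of all tested genes to -0.09967), and ran from -1.301 to -1.187 with 1 library left out. Called partner genes numbered 18 to 22 in the fits, and 44 by the adjusted p alone. Of those 44, 6 lost that side of 0.05 in some fit (APTX, CDKN1A, CHTF8, HLTF, LIG4 and RAD17). Among all tested genes the 927 called became 1659 with no filter, 1669 with a filter at 0.1 FPKM and 560 with limma on log2(FPKM + 1). On log2(FPKM + 1) the ratio differences were 0.8049 for RFC1 to the mean of the small subunits, 0.4146 for DNA2 to FEN1 and -1.094 for RNASEH2A to its accessory subunits; the pseudocount weighs on the low RNASEH2B and DNA2 levels. With the replicate block, 8 members were called and 20 partner genes, with a members' median of -1.241 and 943 of all tested genes called; deviations of libraries with the same number correlated at 0.0278, -0.0648 and 0.0553, so the numbers were not taken to pair samples. The members' counts were 854 to 17316 per library, and the part of depth in their changes was not tested.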

Other observations

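The following genes of the PCNA-binding and PCNA-modifying list were singled out after their values were seen, and the differences between them were not tested. USP1, the enzyme that removes the mark, fell from 28.7 ± 0.526 to 10.3 ± 1.42 FPKM (SD, n = 3; log2 fold change -1.38, adjusted p = 4.3e-06, edgeR), while its cofactor WDR48 went from 4.37 ± 0.214 to 5.01 ± 0.322 FPKM (0.30, adjusted p = 0.0042) and kept its side of the threshold in 16 of 16 alternative fits. RAD18, the ligase that adds the mark, fell from 6.86 ± 0.445 to 3.23 ± 0.129 FPKM (-0.98, adjusted p = 8e-06), and its conjugating enzymes UBE2A and UBE2B did not pass the test (-0.09 and 0.09, adjusted p = 0.15 and 0.19). The other ubiquitin ligases of PCNA on the list were HLTF (-0.37, adjusted p = 0.036, lost in 7 of 16 alternative fits) and SHPRH (-0.04, adjusted p = 0.63). DTL, which directs a PCNA-dependent ubiquitin ligase with p21 among its known substrates, fell from 18.7 ± 0.603 to 5.64 ± 0.594 FPKM (-1.62, adjusted p = 1.4e-06), and PCLAF, a small PCNA-binding protein, from 28.3 ± 0.237 to 8.83 ± 0.489 FPKM (-1.57, adjusted p = 4.5e-07).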
